A study of Mus musculus with 6 samples.

Results

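The VEGF and angiopoietin system of the renal cortex was described from 10 genes, the ligands *Vegfa*, *Vegfb*, *Vegfc*, *Angpt1* and *Angpt2* and the receptors *Kdr*, *Flt1*, *Nrp1*, *Tek* and *Tie1*. They were matched by symbol among the 26903 genes of the count matrices, and all 10 were listed in all 6 libraries. Renal cortex was taken from mice aged 9 months and labelled male, of which 3 were wild type (WT) and 3 lacked *Prdm16* globally (KO). In the KO mice CRISPR-Cas9 had removed exon 2 from every cell type, so that no difference between the groups can be assigned to loss of the gene within the class in which it was seen. Each mouse gave 1 library, made on the BD Rhapsody system from enzymatically dissociated cortex without sorting. The p-values therefore measure the spread between mice of this study, with 3 per group.

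Vascular endothelial growth factors (VEGFs) are secreted proteins that bind receptor tyrosine kinases on endothelial cells. *Vegfa* encodes the main angiogenic ligand, which signals through VEGFR2, the product of *Kdr*. VEGFR1, encoded by *Flt1*, binds the same ligand with little signaling and acts largely as a decoy, and neuropilin 1 (*Nrp1*) is a coreceptor that also binds class 3 semaphorins. The angiopoietins act on the endothelial receptor TIE2 (*Tek*). Angiopoietin 1 activates it, angiopoietin 2 often antagonizes it, and TIE1 (*Tie1*) is a related receptor that modulates it. In the glomerulus, podocytes are the classical source of VEGF for the fenestrated capillaries on the other side of the filtration barrier.

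The genes lie on 6 chromosomes of the mouse genome (GRCm38, GENCODE vM21, protein coding). *Kdr* (chr5:75932827-75978458) and *Flt1* (chr5:147561604-147726011) share chromosome 5 on the minus strand. *Tek* (chr4:94739289-94874976, plus strand) and *Tie1* (chr4:118471191-118490061, minus strand) share chromosome 4. *Vegfc* (chr8:54077606-54187096) and *Nrp1* (chr8:128358604-128503363) lie on the plus strand of chromosome 8 and *Angpt2* (chr8:18690263-18741562) on its minus strand. *Vegfa* (chr17:46016993-46032369), *Vegfb* (chr19:6982473-6987651) and *Angpt1* (chr15:42424723-42676977) lie on the minus strands of chromosomes 17, 19 and 15.

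The promoters of *Vegfa* and of 3 endothelial receptor genes are shown, because *Vegfa* carried the main ligand results and because the receptor genes had closely similar profiles over the cell classes. Each sequence is the 250 bases before the RefSeq transcription start (GRCm38.p6), written 5′ to 3′ on the strand of the gene. Capitals mark GGAA or its complement TTCC, the core bound by ETS factors, a family that includes regulators of endothelial genes.
*Vegfa* promoter, chr17:46032378-46032627, minus strand: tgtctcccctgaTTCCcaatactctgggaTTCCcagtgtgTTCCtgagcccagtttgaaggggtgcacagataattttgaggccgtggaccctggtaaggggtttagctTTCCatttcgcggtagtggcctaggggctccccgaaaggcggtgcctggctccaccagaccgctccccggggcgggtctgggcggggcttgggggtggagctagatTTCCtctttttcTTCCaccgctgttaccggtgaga
*Kdr* promoter, chr5:75978456-75978705, minus strand: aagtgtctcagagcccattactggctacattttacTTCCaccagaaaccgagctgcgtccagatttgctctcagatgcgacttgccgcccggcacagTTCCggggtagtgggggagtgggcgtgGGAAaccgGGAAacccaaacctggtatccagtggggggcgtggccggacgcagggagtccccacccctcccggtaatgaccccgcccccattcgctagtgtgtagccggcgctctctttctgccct
*Flt1* promoter, chr5:147726012-147726261, minus strand: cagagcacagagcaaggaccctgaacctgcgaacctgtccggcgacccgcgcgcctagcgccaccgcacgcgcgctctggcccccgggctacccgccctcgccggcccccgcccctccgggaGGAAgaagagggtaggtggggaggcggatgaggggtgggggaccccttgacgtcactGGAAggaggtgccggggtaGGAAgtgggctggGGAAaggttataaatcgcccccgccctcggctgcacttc
*Tek* promoter, chr4:94739039-94739288, plus strand: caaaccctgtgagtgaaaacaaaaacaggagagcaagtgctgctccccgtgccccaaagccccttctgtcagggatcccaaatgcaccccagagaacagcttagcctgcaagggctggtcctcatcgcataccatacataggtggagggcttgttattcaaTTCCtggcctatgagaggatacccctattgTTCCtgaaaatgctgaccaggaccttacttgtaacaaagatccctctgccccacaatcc
The search covered both strands and no other motif was allowed to mask a match. The *Vegfa* promoter held 6 matches, those of *Kdr* and *Flt1* held 4 each and that of *Tek* held 2. The *Tie1* promoter, not printed, held 7. Among 32851 RefSeq promoters of the same length, 93.4% held at least 1 match, the median was 3, and 8.69% held as many as *Vegfa* or more, against 33.4% for *Kdr* and *Flt1*, 76.8% for *Tek* and 3.82% for *Tie1*. The core of the hypoxia response element (ACGTG or GCGTG, both strands), which was in 38.6% of promoters, had 2 matches in *Kdr*, 1 in *Flt1* and 0 in the printed *Vegfa* window and in *Tek*. RefSeq gives *Vegfa* another start, whose window (chr17:46025164-46025413, not printed) lies inside the gene. It held 2 matches of the ETS core and 2 of the hypoxia core, and 16.7% of promoters held as many of the latter or more. These are letter matches within the window and not binding data, and bases further upstream were not searched. *Angpt1* and *Angpt2* had no promoter in the table.

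Over all barcodes the libraries held between 96382945 and 121198131 unique molecular identifiers (UMIs, 1 per captured transcript). Barcodes with 500 to 60000 UMIs, 200 to 8000 genes and at most 50% mitochondrial UMIs were kept, which after removal of the likeliest doublets left 5036, 5098 and 4522 cells in WT replicates 1 to 3 and 6277, 4020 and 3539 cells in KO replicates 1 to 3. Between 10204 and 12359 barcodes per library met the UMI and gene bounds, and the mitochondrial limit left 3764 to 6677 of them before doublet removal. The cells formed 23 clusters, grouped by marker genes into 19 classes. WT replicate 2 and KO replicate 1 stood apart from their labels. They carried *Xist* at 297 and 306 CPM (defined below) with almost no Y-linked transcripts, whereas the other 4 libraries held at most 0.216 CPM of *Xist*. KO replicate 3 had the fewest cells. At most 2 barcodes were shared between any pair of libraries. *Prdm16* itself was counted at 32.4, 26.7 and 27.1 CPM in the WT and 21.0, 24.9 and 23.4 CPM in the KO libraries over all cells (adjusted p = 0.326, edgeR quasi-likelihood test). Since these counts include reads outside exon 2, they do not check the deletion.

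A level is given throughout as CPM, the UMIs of the gene for each 1000000 UMIs of that class in that library, and class levels as mean ± SD over the 6 libraries. Levels are compared between classes for 1 gene at a time and never between genes. Classes were clusters of the same cells, so differences between classes are described without a test. The 10 genes and their pathway lists were left out of the genes used for clustering, and none was used to name a class. *Kdr* still stood among the 10 leading genes of the glomerular endothelial-like cluster and *Flt1* among those of the peritubular one. A class name means only that the cluster resembled that cell type by its markers.

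**Figure D1:**
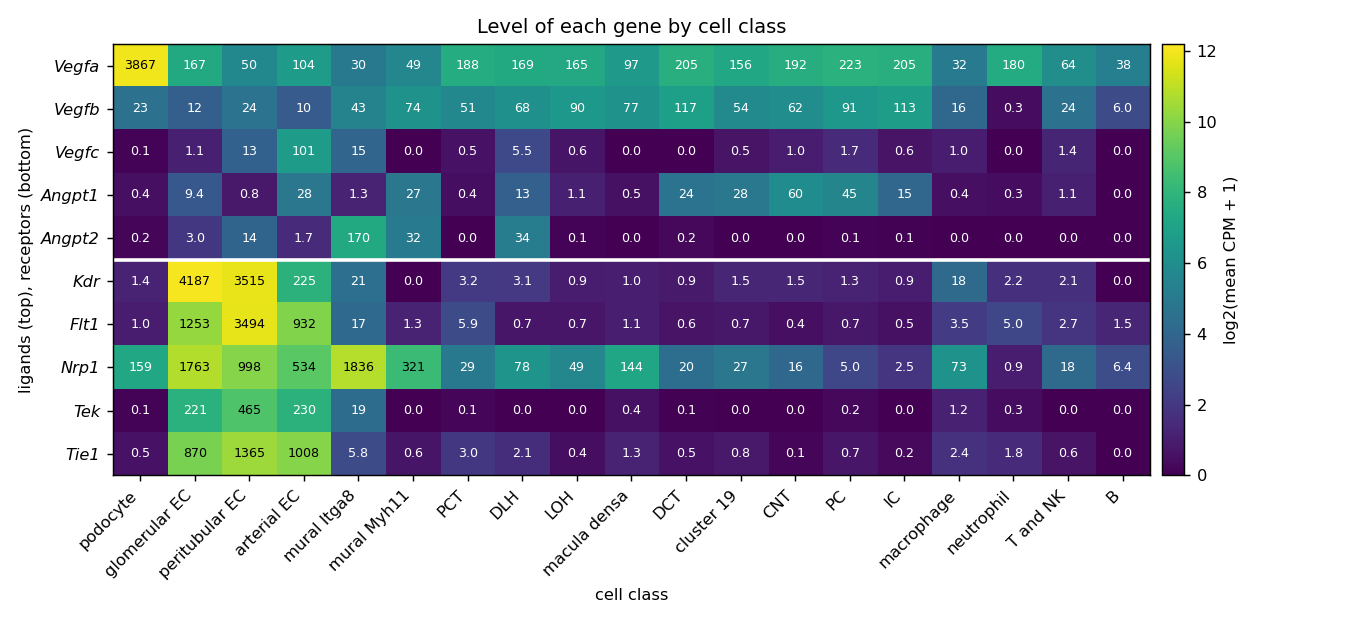
Mean level of each gene (rows, ligands above the white line and receptors below) in each of the 19 cell classes (columns), printed in CPM (mean of 6 libraries) and coloured by log2(mean CPM + 1). *Vegfa* was highest in podocyte-like cells (3867 CPM), and *Kdr*, *Flt1*, *Tek* and *Tie1* were highest in the 3 endothelial-like classes (EC).

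Among the ligands, *Vegfa* was a podocyte transcript with a lower level in most other epithelial classes. Podocyte-like cells held 3867 ± 510.2 CPM and 77.9% ± 4.30 of all *Vegfa* UMIs of the retained cells. At least 1 *Vegfa* UMI was found in 98% ± 1.05 of these cells, and in 96.1% once each cell was thinned to 1000 UMIs. Principal cell-like cells of the collecting duct (PC) came next at 223 ± 64.5 CPM. Distal convoluted tubule-like (DCT, 205 ± 21.8 CPM), intercalated cell-like (IC, 205 ± 18.0 CPM) and connecting tubule-like cells (CNT, 192 ± 41.7 CPM) did not differ from PC or from each other beyond their spread. Loop of Henle-like cells (LOH) held 165 ± 19 CPM and macula densa-like cells 97.0 CPM. Among vascular classes the level was 167 ± 52.3 CPM in glomerular, 104 ± 21.7 CPM in arterial and 50.2 ± 28.0 CPM in peritubular endothelial-like cells. The lowest levels were in B-like (37.5 CPM), macrophage-like (31.9 CPM) and *Itga8* mural-like cells (29.8 CPM). Proximal tubule-like (188 ± 122 CPM) and neutrophil-like cells (180.4 ± 107 CPM over 5 libraries) were too few for a test. The retained cells included 378 proximal tubule-like and 5934 podocyte-like cells. Shares of UMIs by class therefore describe the retained cells and not the cortex.

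The levels outside podocytes were set against free RNA in the suspension. Barcodes with fewer than 100 UMIs, which hold free RNA, carried 461 ± 60.0 CPM of *Vegfa*. The free part within a class was estimated from *Umod*, a loop of Henle transcript, as the share of its free level found in cells that should lack it. In PC this share was 1.84% to 2.77%, which corresponds to 10.8 CPM of *Vegfa*, whereas all 6 PC libraries held at least 154 CPM. The level also exceeded the estimate in all 6 libraries in CNT (24.1 CPM of free *Vegfa*), IC (21.3 CPM), glomerular (36.0 CPM) and arterial endothelial-like cells (28.5 CPM). In peritubular endothelial-like cells the estimate was 50.4 CPM and 3 of 6 libraries exceeded it, which were the 3 KO libraries, in macrophage-like cells 31.8 CPM and 2 of 6, and in *Itga8* mural-like cells 36.7 CPM and 4 of 6. *Vegfa* in these 3 classes thus lay around the level of free RNA. The shares of cells with a *Vegfa* UMI were 5.46% in peritubular endothelial-like (median 1041 UMIs per cell) and 7.55% in macrophage-like cells (3070 UMIs), against 58.6% in PC (6132 UMIs) and 20.5% in PC thinned to 1000 UMIs.

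**Figure D2:**
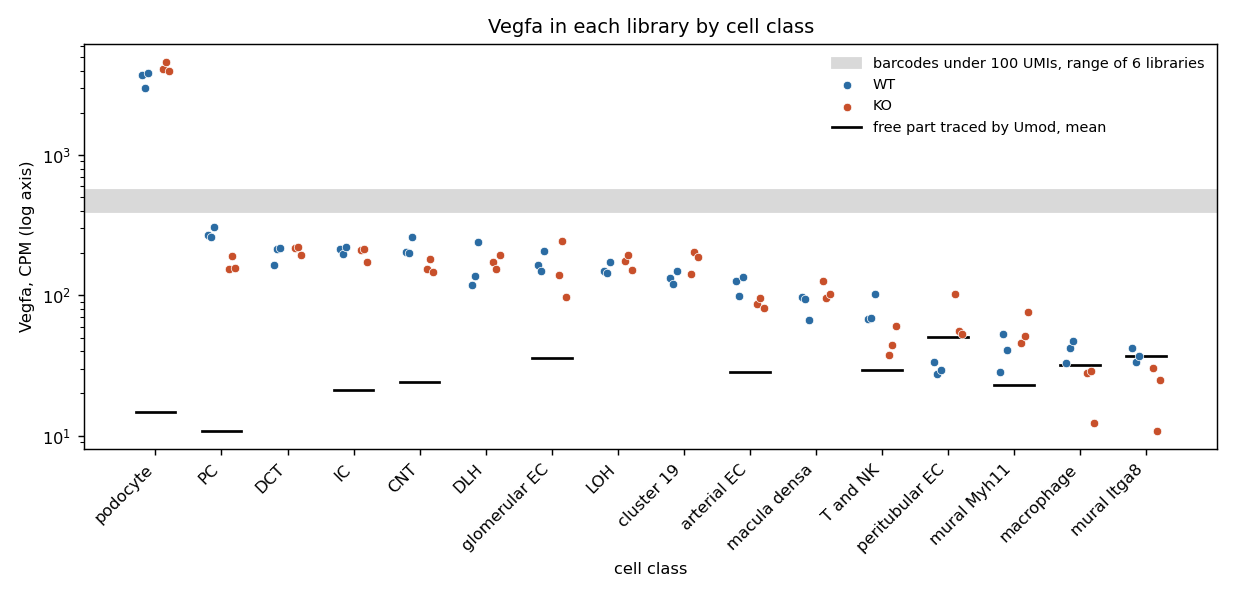
*Vegfa* level (CPM, log axis) in each library by cell class for the 16 tested classes, with WT and KO libraries as points. The grey band is the range in barcodes under 100 UMIs (392 to 560.5 CPM) and the black bars are the mean free part traced by *Umod*, drawn where *Umod* could serve as a tracer. The 3 KO libraries lie below the 3 WT libraries in PC and CNT and above them in podocyte-like and peritubular endothelial-like cells.

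The other ligands had their highest levels in other classes. *Vegfb*, a ligand of VEGFR1, was highest in DCT (117 ± 15.4 CPM) and IC (113 ± 14.2 CPM), whose levels did not differ beyond their spread, followed by PC (90.9 CPM) and LOH (89.9 CPM). In podocyte-like cells it was 23.3 CPM. *Vegfc*, best known as the lymphatic growth factor that binds VEGFR3, was highest in arterial endothelial-like cells at 101 ± 31.0 CPM, which held 69.9% ± 9.60 of its UMIs. The next class, *Itga8* mural-like cells, held 14.6 CPM. *Angpt1* was highest in CNT (59.6 ± 6.56 CPM) and PC (45.4 ± 9.99 CPM), which overlapped, and PC held 39.6% ± 2.64 of its UMIs. Arterial endothelial-like cells held 27.9 ± 2.47 CPM and *Myh11* mural-like cells, with smooth muscle and renin markers, 27.5 ± 16.6 CPM. *Angpt2* was highest in *Itga8* mural-like cells (170.0 ± 29.5 CPM), which held 68.6% ± 18.9 of its UMIs. Its next classes were descending limb-like cells (DLH, 34.4 ± 38.3 CPM) and *Myh11* mural-like cells (32.1 ± 19.2 CPM).

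The *Itga8* mural-like cluster was led by *Sfrp2*, *Ptn* and *Itga8* and also by *Pdgfra*, a fibroblast marker, and the summed 6 fibroblast markers reached 362 to 686 CPM there. The source of *Angpt2* among these mural and stromal cells cannot be narrowed further. Free RNA carried 1.51 CPM of *Angpt2*, 9.41 CPM of *Angpt1* and 1.56 CPM of *Vegfc*, each below the class with the highest level of that gene.

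The receptors divided into 4 endothelial genes and *Nrp1*. The 3 endothelial-like classes together held 98.6% of *Kdr*, 98.8% of *Flt1*, 97.7% of *Tek* and 98.9% of *Tie1* UMIs, but 43.8% of *Nrp1*. Their order among the endothelial-like classes differed. *Kdr* was 4187 ± 428 CPM in glomerular and 3515 ± 493 CPM in peritubular cells, which overlapped, and 225 ± 63.3 CPM in arterial cells, below every library of the other two. A *Kdr* UMI was found in 94.4% of glomerular endothelial-like cells (92.6% after thinning to 1000 UMIs, median depth 1393 UMIs), against 0.734% of PC. *Flt1* was highest in peritubular cells (3494 ± 353 CPM), above glomerular (1253 ± 246 CPM) and arterial cells (932 ± 140.5 CPM). *Tek* was 465 ± 80.0 CPM in peritubular, 230.0 ± 29.2 CPM in arterial and 221 ± 32.9 CPM in glomerular cells, and *Tie1* was 1365 ± 217, 1008 ± 101 and 869.6 ± 176 CPM in the same order. For both genes the arterial and glomerular levels did not differ beyond their spread.

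*Nrp1* was highest in *Itga8* mural-like cells (1836 ± 214 CPM) and glomerular endothelial-like cells (1763 ± 244 CPM), which overlapped. Peritubular (998 ± 211 CPM) and arterial cells (534 ± 88.8 CPM) followed, then *Myh11* mural-like (321 CPM) and podocyte-like cells (159 ± 17.3 CPM). Podocyte-like cells held 20.1% of its UMIs, and their level was above the free estimate of 2.38 CPM in all 6 libraries. In PC and IC it was 4.96 and 2.54 CPM.

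Over the mean levels of the 19 classes, *Kdr*, *Flt1*, *Tek* and *Tie1* correlated with each other at Pearson r of 0.956 to 0.986 on the log2(CPM + 1) scale. *Nrp1* correlated with them at 0.657 to 0.725, and *Vegfa* correlated with no other gene of the system above 0.126. All points share libraries and depth, so the coefficients are descriptions. Among 12977 genes with at least 10 CPM in a class, the profiles most like that of *Vegfa* were *Zfp385b* (r = 0.851), *Hs3st6* (0.836) and *Steap3* (0.821). *Kdr* was closest to *Cd300lg* (0.980), *Gpihbp1* (0.979) and *Rtp3* (0.973), of which GPIHBP1 is the capillary anchor of lipoprotein lipase. *Flt1* was closest to *Tie1* (0.986), *Rtp3* (0.981) and *Adgrl4* (0.980), *Tie1* to *Flt1* (0.986), *Ccm2l* (0.986) and *Mmrn2* (0.985), and *Tek* to *Zfp366* (0.994), *Meox1* (0.994) and *Unc45b* (0.990). *Nrp1* was closest to *2510009E07Rik* (0.924), *Chst14* (0.897) and *Prickle2* (0.890). Among the ligands, *Vegfb* was closest to *Ssx2ip* (0.958), *Phpt1* (0.952) and *Fh1* (0.940), *Vegfc* to *Htr2a* (0.884) and *Fbln5* (0.854), *Angpt1* to *Rasd1* (0.892), *Atp2b2* (0.844) and *Grb14* (0.835), and *Angpt2* to *Bgn* (0.933), *Prelp* (0.931) and *Clip3* (0.929). *Fbln5* is a marker by which the arterial class was named.

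WT and KO were compared within the 16 classes that had at least 20 cells in every library. Counts were summed per library and class and tested with edgeR's quasi-likelihood test over all genes of the class, and p-values were adjusted by Benjamini-Hochberg within the class. Of 160 gene and class pairs, 61 passed the filter on low counts, and only these were tested. *Vegfa* passed in 14 classes, *Nrp1* in 15, *Vegfb* in 11, *Angpt1* in 6, *Kdr* in 4, *Flt1*, *Tek* and *Tie1* in 3, and *Vegfc* and *Angpt2* in 1. An adjusted p under 0.05 was reached by 2 of the 61 pairs, both in PC, against 1.39% of all 110205 gene tests in these classes. In 13 of the 61 pairs the WT and KO libraries did not overlap, as they did not in 16.2% of all gene tests. The log2 ratios below are log2 fold changes, KO over WT, from the fitted model.

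In PC, *Vegfa* was lower and *Angpt1* higher in KO. The *Vegfa* level was 271, 259.8 and 306 CPM for WT replicates 1 to 3, against 154, 191 and 156 CPM for KO replicates 1 to 3. Every KO library was below every WT library, and the mean fell from 279 ± 24.2 to 167 ± 21.0 CPM (log2 ratio −0.71, SE 0.14, adjusted p = 0.0194, edgeR). *Angpt1* was 35.9, 39.1 and 37.6 CPM for WT against 60.9, 53.6 and 45.5 CPM for KO. The groups did not overlap, and the mean rose from 37.5 ± 1.6 to 53.3 ± 7.74 CPM (log2 ratio 0.54, SE 0.13, adjusted p = 0.0479). In PC 2.8% of 10924 genes were called. *Vegfb* (log2 ratio 0.11) and *Nrp1* (−0.05) were the other 2 genes tested in PC and did not pass.

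Both differences had the same sign in each of the 2 clusters that made up the class. In cluster 4, *Vegfa* was 277 ± 37.7 CPM for WT against 174 ± 18.4 CPM for KO (log2 ratio −0.67, adjusted p = 0.0354), and in cluster 6 it was 282 ± 13.1 and 158 ± 28.0 CPM (−0.81, adjusted p = 0.0164). *Angpt1* was 46.8 ± 1.91 CPM for WT against 60.3 ± 1.57 CPM for KO of cluster 4 and 30.01 ± 3.89 and 47.5 ± 16 CPM in cluster 6, and neither difference passed alone (adjusted p = 0.301 and 0.164). The share of PC among retained cells was 14.9% ± 0.726 in WT and 9.69% ± 2.82 in KO.

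**Figure D3:**
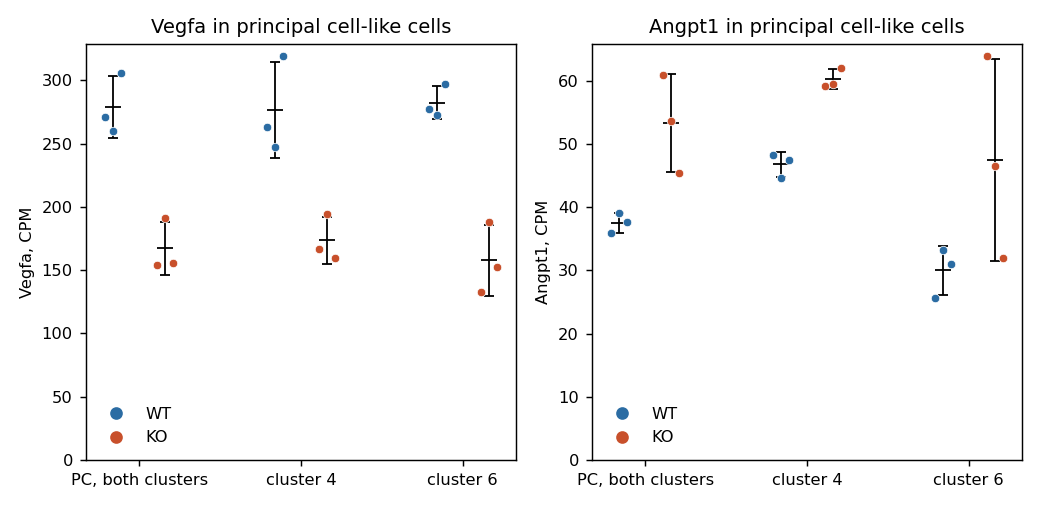
*Vegfa* (left) and *Angpt1* (right) levels in CPM in principal cell-like cells, for both clusters together and for clusters 4 and 6 alone. Points are libraries, horizontal marks and bars are mean and SD of 3 libraries. All 3 KO libraries lie below the 3 WT libraries for *Vegfa* in each of the 3 groupings.

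Other features of PC moved with genotype. The summed 10 dissociation stress genes were 6812 to 8187 CPM for WT against 8279 to 11803 CPM for KO. The 6 CNT markers were 12889 to 16560.5 CPM for WT against 11253 to 11960.4 CPM for KO, and the 6 intercalated cell markers 511 to 801 and 321 to 503 CPM. The 6 neutrophil markers were 0.357 to 1.05 CPM for WT against 7.83 to 43.9 CPM for KO, and the 4 monocyte markers, with *Ccr2* at 0, 0.714 to 3.57 and 13.3 to 58.7 CPM. Lower in every KO library were also the sums of the 4 macula densa markers (7.95 to 17.9 against 2.20 to 7.26 CPM), the 6 glomerular endothelial markers (175 to 186 against 143 to 173 CPM) and the 4 lymphatic markers (2.27 to 2.68 against 1.21 to 2.20 CPM, *Ccl21a* at 0). The part of all these in the PC results was not tested. The *Vegfa* call in PC was lost without WT replicate 3 (adjusted p = 0.0657), KO replicate 1 (0.1005) or KO replicate 3 (0.0558), and the log2 ratio stayed between −0.81 and −0.59. *Angpt1* kept its call in the fit without KO replicate 3 but in no fit that left out another library (adjusted p = 0.0749 to 0.203). In the 4 libraries with Y-linked transcripts alone the adjusted p was 0.157 for *Vegfa* (log2 ratio −0.69) and 0.361 for *Angpt1* (0.47). With all 6 libraries and a term for those that carry *Xist*, it was 0.0138 and 0.0474 (log2 ratios −0.71 and 0.54, edgeR).

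In podocyte-like cells, the class with most *Vegfa*, the level was 3689, 3024 and 3846 CPM for WT against 4087, 4571 and 3987 CPM for KO. The KO libraries were all higher, but the difference did not pass the test (log2 ratio 0.24, SE 0.12, adjusted p = 0.331, edgeR, where 1.85% of genes were called). In cluster 0 of this class the means were 3749 ± 502 CPM for WT against 4612 ± 342 CPM for KO (adjusted p = 0.228), and in cluster 2 they were 3300.2 ± 365 and 3646 ± 406 CPM. The summed 8 podocyte markers were 23468 to 27250 CPM for WT against 19048 to 21711 CPM for KO. *Vegfb* (log2 ratio 0.00) and *Nrp1* (−0.01) had nearly the same level in both groups of podocytes.

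Of the remaining *Vegfa* comparisons, 4 had an unadjusted p under 0.05 and none passed the adjustment with edgeR or DESeq2. In CNT it was 205, 200.3 and 262 CPM for WT against 155, 180.4 and 147 CPM for KO (log2 ratio −0.44, adjusted p = 0.232, 1.72% of genes called). In arterial endothelial-like cells it was 120.2 ± 18.4 CPM for WT against 88.1 ± 7.76 CPM for KO (−0.40, adjusted p = 0.489, 0.502% called). T and NK-like cells held 79.7 ± 19.3 and 47.4 ± 11.5 CPM (−0.79, adjusted p = 0.929, 0.0253% called). In peritubular endothelial-like cells the level was 33.7, 27.6 and 29.3 CPM for WT against 102, 55.4 and 53.0 CPM for KO (1.19, SE 0.38, adjusted p = 0.289, 0.311% called). The peritubular levels rest on 118 UMIs, with all 3 WT libraries below their free estimates and all 3 KO libraries above theirs. With doublets kept the log2 ratio was 0.28 there and −0.18 in T and NK-like cells. In DCT, IC and LOH the *Vegfa* groups overlapped, with log2 ratios of 0.10, −0.07 and 0.16, and 1.26%, 0.652% and 4.32% of all genes were called there.

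*Vegfb* was 58.6, 45.6 and 47.6 CPM for WT against 67.9, 88.5 and 66.2 CPM for KO in CNT. The groups did not overlap and the difference did not pass the adjustment (log2 ratio 0.56, SE 0.17, adjusted p = 0.136, edgeR). In DCT, its class of highest level, the log2 ratio was 0.05. With a mitochondrial limit of 30% these values were 0.13 in CNT and 0.75 in DCT, and neither passed. *Vegfc* in arterial endothelial-like cells was 129, 105 and 135 CPM for WT against 57.2, 71.6 and 109 CPM for KO, which overlapped (−0.62, SE 0.23, adjusted p = 0.398). *Angpt1* in CNT (−0.07) and *Angpt2* in *Itga8* mural-like cells (0.06) differed by less than their SE, and both values changed sign in some alternatives. The share of genes called in *Itga8* mural-like cells was 0.522%.

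For the receptors, 15 pairs of receptor and endothelial-like class were tested, and 0 passed the adjustment with edgeR or DESeq2, with 1 at an unadjusted p under 0.05. The log2 ratios ranged from −0.64 to 0.16 with a median of −0.18, and 12 were below 0, while the median over all genes tested was 0.00 in each of the 3 classes. *Kdr* in arterial cells gave the lowest p of the 15. It was 251, 289 and 294 CPM for WT against 189.5, 192 and 135 CPM for KO, without overlap (log2 ratio −0.64, SE 0.17, adjusted p = 0.166). In the same cells the summed 5 peritubular markers were 513 to 669 CPM for WT against 697 to 1403 CPM for KO, the 7 pan-endothelial markers 3929 to 4489.9 and 3493 to 3840 CPM, and the 10 dissociation stress genes 7913 to 17545 and 17877 to 19173 CPM. The 4 macula densa markers were 87.7 to 89.3 and 46.7 to 52.1 CPM there, and the 6 neutrophil markers 0 to 1.75 and 5.95 to 34.3 CPM, with *Csf3r* and *Mmp8* at 0. The part of these in the difference was not tested. With classes set cell by cell from marker scores, the *Kdr* difference was −0.31.

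**Figure D4:**
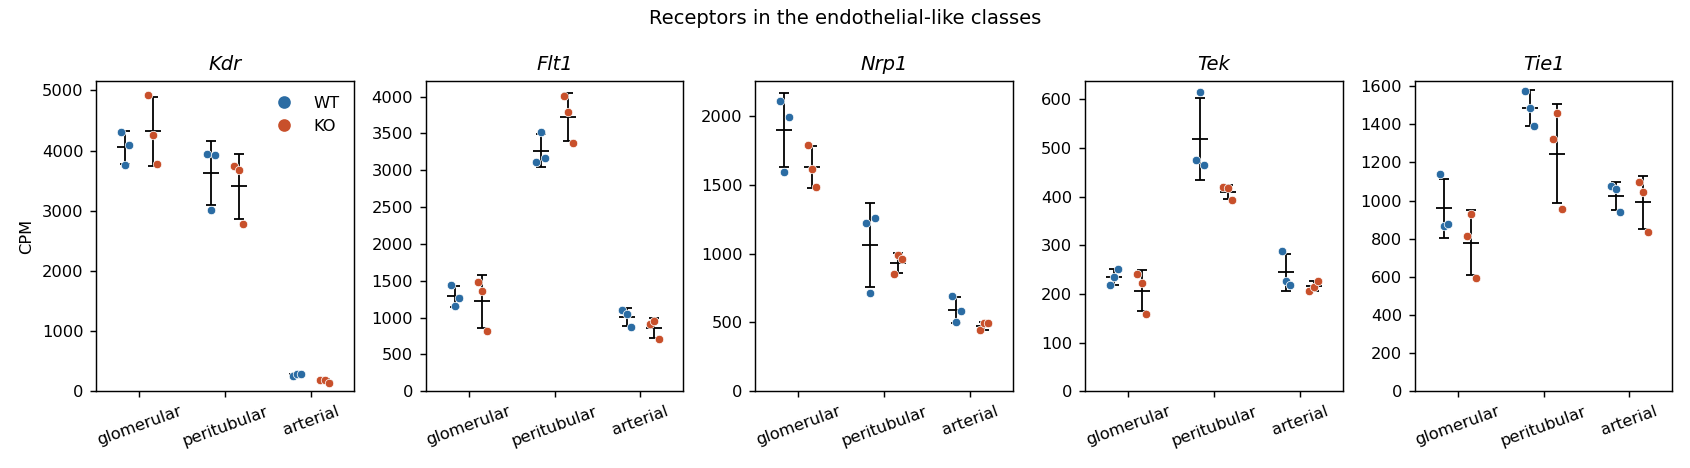
Levels of the 5 receptor genes (CPM, axes from 0) in glomerular, peritubular and arterial endothelial-like cells. Points are libraries of WT and KO, horizontal marks and bars are mean and SD of 3 libraries. WT and KO libraries did not overlap for *Kdr* and *Nrp1* in arterial and for *Tek* in peritubular cells.

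In glomerular endothelial-like cells *Kdr* was 4311, 3762 and 4093 CPM for WT against 4918, 4264 and 3774 CPM for KO (log2 ratio 0.11, SE 0.17, adjusted p = 0.991, 0.188% of genes called). *Tek* in peritubular cells was 476, 615 and 464 CPM for WT against 420.2, 418 and 394 CPM for KO, without overlap (−0.36, SE 0.18, adjusted p = 0.662), and the log2 ratio was −0.0091 with classes set from marker scores. *Flt1* in peritubular cells was 3265 ± 227 CPM for WT against 3723 ± 322 CPM for KO (0.16, SE 0.17) and *Tie1* was 1484 ± 93.8 and 1246 ± 259 CPM (−0.29, SE 0.18). *Nrp1* had log2 ratios of −0.20, −0.23 and −0.26 in glomerular, peritubular and arterial cells and 0.02 in *Itga8* mural-like cells. Its difference in DLH (−0.92, SE 0.40, adjusted p = 0.576) rests on 127 UMIs, and 0.0244% of genes were called in that class.

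The genotype effect was set against itself in the 2 capillary classes with an interaction term. Of the 7 genes tested, 0 passed with edgeR or DESeq2, with 1 at an unadjusted p under 0.05, and 0.0481% of all genes were called. The difference between glomerular and peritubular effects was 0.22 (SE 0.17) for *Kdr*, −0.24 (SE 0.20) for *Flt1*, 0.00 (SE 0.20) for *Nrp1*, 0.21 (SE 0.24) for *Tek* and 0.01 (SE 0.19) for *Tie1* on the log2 scale. For *Vegfa* it was −1.36 (SE 0.46, adjusted p = 0.812), and −0.30 with doublets kept. Between podocyte-like and LOH cells the interaction was 0.09 (SE 0.14) for *Vegfa*, and 0 of 4 genes passed with either tool, with 0 at an unadjusted p under 0.05 and 2.12% of all genes called.

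In the sum over all cells the endothelial receptors had higher means in KO, and so did the share of endothelial-like cells. That share was 12.0%, 11.9% and 15.2% in WT and 23.8%, 24.0% and 19.2% in KO. *Flt1* was 54.8, 48.8 and 54.4 CPM for WT against 147, 131 and 71.2 CPM for KO (log2 ratio 1.14, SE 0.21, adjusted p = 0.0568), and *Kdr* was 59.2, 69.8 and 89.1 CPM for WT against 234, 177 and 78.4 CPM for KO (1.14, SE 0.34, adjusted p = 0.175). *Tek* (0.73, adjusted p = 0.110) and *Tie1* (0.78, adjusted p = 0.196) had the same sign, and *Nrp1* was at 0.25. Of the 10 genes 0 were called with edgeR, 4 had an unadjusted p under 0.05 and DESeq2 called these 4. Of all genes edgeR called 1.07% and DESeq2 5.38%. Without KO replicate 3, in which these receptors were lowest among the KO libraries, edgeR called all 5 receptors.

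When each class contributed the same number of cells in every library, the summed log2 ratios were 0.03 for *Kdr*, 0.04 for *Flt1*, −0.22 for *Nrp1*, −0.14 for *Tek* and −0.08 for *Tie1*. In the plain sum, more endothelial cells and more transcript per endothelial cell cannot be told apart. *Vegfa* in the plain sum was 643 to 696 CPM for WT against 532 to 928 CPM for KO (0.16, SE 0.16).

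**Figure D5:**
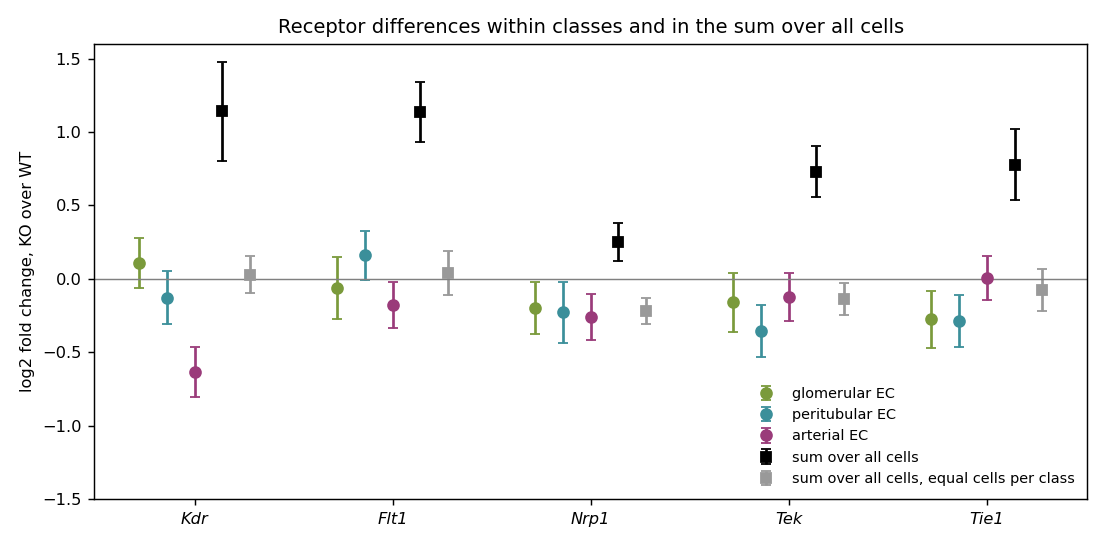
Log2 ratio of KO over WT (points) with SE (bars) of the 5 receptors in the 3 endothelial-like classes (circles) and in sums over cells (squares). Black squares are the sum over all cells. In the sum of the grey squares each class gave the same number of cells in every library, while numbers differed between classes. *Kdr* and *Flt1* are at 1.14 in the plain sum and at 0.03 and 0.04 with equal numbers of cells.

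The other genes of the pathway, in 7 lists, gave 582 tests within classes, of which 10 were called higher and 9 lower in KO (3.26%, 98 at an unadjusted p under 0.05). Over all genes 1.39% of the tests were called, and 12529 of 110205 had an unadjusted p under 0.05. The shares for semaphorin partners (1.67%), HIF control genes (1.20%) and VEGFR2 signal transduction (0.658%) were near or below that over all genes, and that for TIE2 signal transduction (2.38%) rests on 2 calls. Those for genes that VEGF induces (9.52%) and for HIF target genes (7.08%) were above it, and the same genes recur across classes. The 8 other ligands and receptors had 0 of 27 tests called with edgeR, 9 at an unadjusted p under 0.05 and 1 called by DESeq2. Their levels were led by *Vegfd* in *Itga8* mural-like cells (196 ± 69.1 CPM), *Angpt4* in *Myh11* mural-like cells (149 ± 41.3 CPM), *Flt4*, which encodes VEGFR3, in peritubular endothelial-like cells (182 ± 21.8 CPM), *Ptprb*, the phosphatase that acts on TIE2, in arterial cells (1940.1 ± 393 CPM) and *Esm1*, an endothelial proteoglycan gene, in peritubular cells (1287 ± 269.8 CPM). The mural-like classes thus held the highest levels of the ligands *Angpt2*, *Angpt4* and *Vegfd*. They also held that of the listed ligand *Pgf*, at 28.1 ± 22.2 CPM in *Myh11* mural-like cells. The *Itga8* class, highest for *Angpt2* and *Vegfd*, also carried fibroblast markers, so the source of these ligands cannot be narrowed to mural cells.

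Among the class 3 semaphorins and plexins listed as possible partners of NRP1, 1 of 60 tests was called. *Sema3c* in LOH rose from 21.6 ± 2.26 to 36.7 ± 4.97 CPM (log2 ratio 0.75, adjusted p = 0.00566, edgeR). *Sema3g* was highest in podocyte-like cells (4022 ± 581 CPM), as was *Sema3e* (400.4 ± 30.6 CPM). Binding of these semaphorins to NRP1 was not examined. Of the genes of VEGFR2 signal transduction 1 of 152 tests was called, *Prkca*, a protein kinase C, in PC (21.9 ± 1.82 to 11.7 ± 0.732 CPM, −0.86, adjusted p = 0.0200). Of TIE2 signal transduction 2 of 84 tests were called. They were *Klf2*, a flow-responsive transcription factor of endothelial and immune cells, in PC (13.1 ± 2.30 to 44.3 ± 5.23 CPM, 1.8, adjusted p = 0.000191) and the adaptor gene *Dok2* in LOH (1.21, adjusted p = 0.00959), neither of them in an endothelial class. *Klf2* was highest in neutrophil-like (1005 CPM) and arterial endothelial-like cells (1003 CPM). Neutrophil markers were higher in the KO libraries of PC as given above, and their part in the *Klf2* difference was not tested.

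The genes that VEGF induces in endothelial cells had 6 of 63 tests called (9.52%, against 1.39% over all genes). All 6 were lower in KO and outside the endothelium, and 2 were in LOH, where 4.32% of all genes were called. In arterial, glomerular and peritubular endothelial-like cells 7, 5 and 3 genes of this list were tested, and 0 were called. *Adm*, which encodes the vasodilator adrenomedullin and also responds to hypoxia, fell in CNT from 119, 133 and 139 CPM to 31.3, 26.9 and 63.0 CPM (log2 ratio −1.65, SE 0.24, adjusted p = 0.000788) and in PC from 136 ± 32.9 to 63.8 ± 20.4 CPM (−1.04, adjusted p = 0.0354). *Nr4a1*, an immediate early nuclear receptor, fell in LOH (251 ± 11.6 to 109.7 ± 6.03 CPM, −1.19, adjusted p = 2.50e-05) and macula densa-like cells (−0.82, adjusted p = 0.0293, where 1.82% of genes were called). The related *Nr4a2* fell in LOH (−1.16, adjusted p = 0.0193) and the calcineurin regulator *Rcan1* in podocyte-like cells (−0.77, adjusted p = 0.0373). In LOH the 10 dissociation stress genes, which respond to tissue handling, were 6095 to 7552 CPM for WT against 8439 to 11077 CPM for KO. The same sums overlapped in macula densa-like (8723 to 16593 and 11119.9 to 12718 CPM) and podocyte-like cells (13971 to 25497 and 16253 to 29474 CPM). Their part in these differences was not tested.

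The hypoxia inducible factor (HIF) pathway controls *Vegfa* transcription. Of its control genes 1 of 83 tests was called, *Egln1*, the main oxygen sensing prolyl hydroxylase, in DCT (63.2 ± 3.00 to 107 ± 19.9 CPM, log2 ratio 0.80, adjusted p = 0.00867). Of the HIF target genes 6 of 113 tests were called higher and 2 lower (7.08% together, against 1.39% over all genes). *Pdk1*, which restrains pyruvate entry into mitochondria, rose in PC (31.1 ± 5.70 to 59.7 ± 0.761 CPM, 0.98, adjusted p = 0.00219), CNT (0.89, adjusted p = 0.00913) and DCT (0.74, adjusted p = 0.0270). *Bnip3*, a mitophagy gene, rose in DCT (0.74, adjusted p = 0.0102) and LOH (0.52, adjusted p = 0.00566), and the glycolytic regulator *Pfkfb3* rose in LOH (1.07, adjusted p = 0.0223). *Ndrg1* fell in DCT (300.1 ± 8.49 to 138 ± 29.3 CPM, −1.12, adjusted p = 0.000934) and in PC (1069.9 ± 62.4 to 663 ± 160.0 CPM, −0.66, adjusted p = 0.0381).

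In PC *Vegfa*, *Adm* and *Ndrg1* were lower and *Pdk1* was higher in the same KO libraries. Of these, *Ndrg1* and *Pdk1* were on the list of HIF target genes, and *Vegfa* and *Adm* were not. Of that list 9 genes were tested in PC, 6 at an unadjusted p under 0.05 (edgeR) and 5 with a log2 ratio above 0. The part of the HIF pathway in these differences was not tested. Of the 19 calls, 8 held whichever library was left out, namely *Adm* in CNT, *Ndrg1* in DCT, *Nr4a1*, *Bnip3*, *Sema3c* and *Dok2* in LOH, and *Klf2* and *Pdk1* in PC. The other 11 were lost in at least 1 such fit. Leaving out WT replicates 1, 2 and 3 lost 5, 7 and 7 calls, and leaving out KO replicates 1, 2 and 3 lost 8, 5 and 6. The adjusted p of the lost calls reached 0.166 for *Ndrg1* and 0.165 for *Adm* in PC, 0.106 for *Prkca*, 0.173 for *Nr4a1* in macula densa-like cells, 0.125 for *Rcan1*, 0.0992 and 0.0619 for *Pdk1* in DCT and CNT, 0.0937 for *Nr4a2*, 0.0726 for *Pfkfb3*, 0.0738 for *Egln1* and 0.0515 for *Bnip3* in DCT. In the classes not named so far, the share of all genes called was 0.337% in macrophage-like cells and 0.299% in the unnamed cluster 19, led by *Calb1*, *Ltc4s* and *Slc12a3*, and 0 of the 7 pairs tested there were called with edgeR or DESeq2, with 0 at an unadjusted p under 0.05. In *Myh11* mural-like cells the share was 0%, with 0 of 2177 genes called by edgeR or DESeq2 and 133 at an unadjusted p under 0.05, on 20 cells in KO replicate 3.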

How the data were processed

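The authors deposited raw UMI counts per gene and barcode, not normalised and with empty barcodes included, made from 6 renal cortex libraries with the BD Rhapsody WTA pipeline on mm10 with GENCODE annotation. Their processing notes name Scanpy 1.8, and no cell annotation was used here. Retained cells (filters in the report) lost the 6% with the highest Scrublet scores in each library, because its automatic threshold marked too few. With scanpy 1.11.5, 2000 variable genes gave 30 principal components, 15 neighbours and Leiden clusters at resolution 1. Depth was 23110714 to 35366031 UMIs per library in retained cells. Counts summed per library and class were tested with edgeR 4.0.16 in R 4.3.3 (TMM scaling, genes kept by filterByExpr at 10 counts, two-sided quasi-likelihood test, Benjamini-Hochberg adjustment over all genes of a class, 20 cells needed in each library; CPM is UMIs for each 1000000 of a class), with DESeq2 1.42.0 as an alternative. With 3 mice against 3 an exact permutation test cannot give a p below 0.1, so none was used. On data simulated from podocyte-like counts the script recovered 86.9% of genes changed by 1 log2 unit. In glomerular endothelial-like cells it recovered 34.1% of 91 such genes, and all of the 91 changed by 2. False calls were 9 of 193 in podocyte-like and 7 of 129 in glomerular endothelial-like data. All genes of a class were simulated with the same dispersion, so the recovered shares need not hold for the real counts. The 10 genes are given a fold change where the unadjusted p was under 0.05 or in the class of their highest level, pathway genes where called (at most 6 per class by lowest p), and 3 genes of like profile for each, of which 1 is not reported here. The genes and lists were chosen with earlier results of these data known. Replicate numbers were not used to pair the mice in the reported settings.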

Additional observations from a re-analysis of the deposited data

Results flagged for a closer look

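*Vegfa* lay on opposite sides in different classes, with all 3 KO libraries above all 3 WT libraries in some classes and below them in others. Over all genes tested in the 16 classes, 16.2% had groups that did not overlap. The log2 ratio of KO over WT was 0.24 in podocyte-like and 1.19 in peritubular endothelial-like cells. It was −0.71 in PC, −0.44 in CNT, −0.40 in arterial endothelial-like, −0.56 in macrophage-like and −0.79 in T and NK-like cells. Of these 7 values the one in PC passed the adjustment. The opposite directions among these 7 classes were not tested against each other, and the classes share the same 6 libraries. The differences tested were those between glomerular and peritubular endothelial-like cells (−1.36, adjusted p = 0.812, edgeR) and between podocyte-like cells and LOH (0.09), and neither passed. The peritubular and macrophage values rest on 118 and 113 UMIs. In peritubular cells the 3 WT libraries lay below the estimate of free *Vegfa* and the 3 KO libraries above it.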

How the results depend on the processing

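Each group had 3 libraries, 1 per mouse. The number of gene and class pairs called, 2 with the reported settings, was 1 with DESeq2 size factors, 1 with the DESeq2 test, 1 with a mitochondrial limit of 30%, 1 with equal cells per library, 1 in the replicate block (a term for the replicate number) and 0 in the 4 libraries that carry Y-linked transcripts. With doublets kept, or with a term for the libraries that carry *Xist*, it stayed 2. It was 3 without the low count filter, where *Vegfc* in LOH was also called (log2 ratio 3.20, adjusted p = 0.0239), and 3 with classes from single-cell scores, where *Kdr* was also called in DCT and LOH. It was 0 to 1 when 1 library was left out, 0 without WT replicate 3 or KO replicate 1. *Vegfa* in PC was called in 14 of 18 alternatives (log2 ratio −0.81 to −0.59, adjusted p up to 0.157) and *Angpt1* in PC in 4 of 18 (0.38 to 0.67, adjusted p up to 0.361). The alternatives that keep single clusters were chosen after seeing the data. In the sum over all cells 0 genes were called, against 4 with the DESeq2 test, 1 without the low count filter, 3 with a mitochondrial limit of 30% and 0 to 5 when 1 library was left out, 5 without KO replicate 3. The 19 pathway calls became 56 without the low count filter, 7 with a mitochondrial limit of 30% and 6 in the libraries with Y-linked transcripts, and 23 with the replicate block. The cause of these changes was not tested. Deviations of same-numbered WT and KO libraries correlated at r of 0.214, −0.0644 and 0.212. Differently numbered ones gave −0.357 to 0.188, so that pairing by replicate number was neither shown nor excluded.

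Uncalled log2 ratios also moved. With doublets kept, *Vegfa* was 0.28 in peritubular endothelial-like cells (reported 1.19), −0.18 in T and NK-like cells (−0.79) and −0.30 in the interaction (−1.36). With a mitochondrial limit of 30%, *Vegfb* was 0.13 in CNT (0.56) and 0.75 in DCT (0.05), and *Vegfa* in CNT was −0.80 (−0.44). With classes from single-cell scores, *Tek* and *Tie1* in peritubular cells were −0.0091 and −0.06 (−0.36 and −0.29). Some log2 ratios near 0 changed sign. *Angpt1* in CNT was 0.24 with classes from single-cell scores, 0.0023 with equal cells, 0.023 with Y-linked libraries and −0.21 to 0.068 when 1 library was left out. *Angpt2* in *Itga8* mural-like cells was −0.0097 without the low count filter, −0.0092 with doublets kept, −0.039 with equal cells and −0.10 to 0.25 leaving out 1 library. *Nrp1* in the same cells was −0.059, −0.015 and −0.036 in those 3 settings, −0.034 with Y-linked libraries and −0.073 to 0.12 leaving out 1 library. *Kdr* in glomerular endothelial-like cells was −0.021 and *Vegfb* in DCT −0.085 with Y-linked libraries, the latter −0.022 to 0.16 leaving out 1 library. *Tek* and *Tie1* over all cells were −0.14 and −0.076 with equal cells. Of 385 values of the 10 genes under the alternatives, 332 kept direction and side of the threshold. Classes from single-cell scores were not run for both mural classes and cluster 19.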
